A study of Mus musculus with 15 samples.

Results

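Forebrain RNA of the PLX3X_CD30 group was compared with that of the PLX3X_CD0 group, 3 libraries in each, which makes 6 of the 15 libraries of the series. The libraries were chosen by the names PLX3X_CD30 and PLX3X_CD0 in their descriptions. The series measured bulk RNA of snap-frozen forebrain from wild-type mice (genotype WT in every label), and its title is about monocyte-derived macrophages in the brain. The comparison asks which transcripts that are low in PLX3X_CD0 return in PLX3X_CD30, and what else differs besides macrophage genes. The labels give the PLX3X_CD0 libraries as PLX 3x treated and the PLX3X_CD30 libraries only as PLX treated, so the place of the PLX3X_CD30 libraries among the 3x libraries rests on their library names. The other groups used here are PLX1X, given as PLX 1x treated, and untreated forebrain (NT), with 3 libraries each, and 3 libraries labelled IR-BMT entered the fit only. PLX, CD0 and CD30 are not spelled out, and the labels give no age, strain, dose or interval. Nor do they tie each library to its own mouse, and the p-values therefore reflect only how far these libraries lie apart, a spread that could be technical.

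Microglia are the resident macrophages of the brain, and their survival depends on CSF1R, the receptor for the growth factors CSF1 and IL-34. Microglia that are lost can be replaced by surviving microglia or by macrophages that enter from the blood. Bone marrow-derived macrophages that settle in the brain share most of their transcripts with microglia, but they are known for low levels of genes such as P2ry12, Tmem119 and Sall1 and for expression of Ms4a7. Border-associated macrophages, which live in the meninges and around vessels, are recognised by genes such as Mrc1 and F13a1.

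Total counts were 38094395 to 38993569 in the PLX3X_CD30 libraries and 50176542 to 54801136 in the PLX3X_CD0 libraries. Levels are CPM, counts relative to the library total after scaling with TMM factors. Log2 fold changes are PLX3X_CD30 over PLX3X_CD0, given with the standard error (SE) of edgeR's quasi-likelihood fit to all 15 libraries, and every adjusted p is from that test with Benjamini-Hochberg adjustment over 21780 genes. A gene is said to have risen or fallen where its adjusted p was under 0.05. In bulk RNA, fewer cells of a type and less RNA per cell cannot be told apart. The PLX3X_CD30 and PLX3X_CD0 comparisons with NT share libraries with the main comparison, so their values are only set side by side.

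In PLX3X_CD30, 407 genes were higher and 421 were lower than in PLX3X_CD0, which is 1.87% and 1.93% of the genes tested and 3.80% in both directions together. The rises were larger than the falls. A change of at least 2-fold was reached by 188 of the genes that rose, 0.863% of those tested, and by 2 of the genes that fell, 0.00918%. These 2 were BC067074 and Acsm5, the second of which was named after its values were seen. The Acsm5 call was lost in 5 of the 6 fits that left out a library (adjusted p 0.0857 to 0.215). The median log2 fold change was 0.84 among the 407 genes that rose, -0.30 among the 421 that fell and 0 over all genes tested. Both counts rest on small groups. Without PLX3X_CD30 replicate 1, 199 genes rose and 185 fell. Without PLX3X_CD30 replicate 2 the counts were 225 and 194, and without PLX3X_CD0 replicate 3 they were 239 and 214. The falls dropped to 247 without PLX3X_CD30 replicate 3 and to 277 without PLX3X_CD0 replicate 1.

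Genes shared by microglia and other macrophages rose together. Of 19 listed, 19 passed the filter on low counts and 19 rose, against 1.87% of all genes tested, with a median log2 fold change of 3.35. The 3 PLX3X_CD30 libraries lay above the 3 PLX3X_CD0 libraries in each of the 19 genes, a separation found in 12.1% of all genes. Csf1r, the receptor that microglia need for survival, had 55.7, 53.8 and 55.7 CPM in PLX3X_CD30, against 5.37, 10.6 and 3.58 CPM in PLX3X_CD0. The PLX3X_CD30 libraries were nearly equal, while those of PLX3X_CD0 were spread, with replicate 2 the highest. The log2 fold change of Csf1r was 3.08 (SE 0.39, adjusted p = 0.00154), and its mean was 33.3% of the NT mean in PLX3X_CD30 and 3.95% in PLX3X_CD0. Cx3cr1, the fractalkine receptor by which microglia sense neurons, had 28.0, 25.4 and 25.9 CPM in PLX3X_CD30 and 2.01, 3.36 and 1.46 CPM in PLX3X_CD0 (log2 fold change 3.54, SE 0.37, adjusted p = 0.000408). C1qa, a chain of the complement starter C1q, had 20.8, 18.6 and 22.6 CPM in PLX3X_CD30 and 1.76, 3.38 and 0.579 CPM in PLX3X_CD0 (log2 fold change 3.44, SE 0.50, adjusted p = 0.00356). In both genes the groups were well apart, and PLX3X_CD0 replicate 2 again held most transcript of its group. The smallest adjusted p of the list belonged to Fcgr3, an activating Fc receptor for IgG, with 9.99, 10.6 and 10.2 CPM in PLX3X_CD30 and 1.91, 2.15 and 1.68 CPM in PLX3X_CD0 (log2 fold change 2.42, SE 0.17, adjusted p = 1.63e-07). The tetraspanin Cd53 and the G-CSF receptor Csf3r rose by 3.96 and 3.52 on the log2 scale. The smallest rise was that of the lysosomal glycoprotein Cd68, with a log2 fold change of 0.97 (SE 0.15, adjusted p = 0.000758).

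The return was partial in level. The 19 shared genes had a median of 48.7% of the NT mean in PLX3X_CD30 and of 4.73% in PLX3X_CD0. Over all genes, 6.57% differed from NT in PLX3X_CD30 and 21.7% in PLX3X_CD0. In the test against NT, 8 of the 19 were lower in PLX3X_CD30 and 19 were lower in PLX3X_CD0, beside 1.84% and 9.53% of all genes. Summed over the list, the level was 304, 295 and 309 CPM in PLX3X_CD30 and 28.7, 54.1 and 21.7 CPM in PLX3X_CD0, with 587, 711 and 726 CPM in NT. PLX3X_CD0 replicate 2 thus carried the most macrophage transcript of its group, and without it the log2 fold change of C1qa was 4.16 and that of the C1q chain C1qc was 4.43, against 3.64 with it. What part that library plays in other results was not tested beyond the fits that leave it out.

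**Figure D1:**
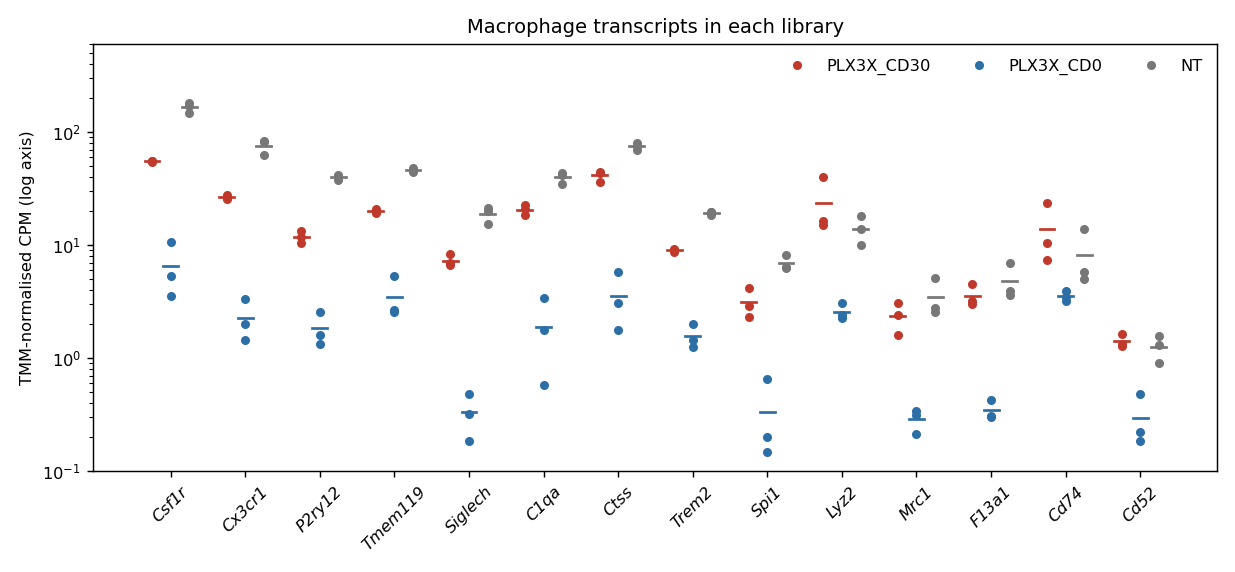
TMM-normalised CPM (log axis) of macrophage genes in each library, with PLX3X_CD30 left of PLX3X_CD0 and NT last; each point is a library. For Csf1r the PLX3X_CD30 points lie at 53.8 to 55.7 CPM, above all PLX3X_CD0 points and below all NT points.

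Microglia-restricted genes rose as well, except for the Sall factors. Of 13 listed genes, 13 were tested, 11 rose and 0 fell, beside 1.87% and 1.93% of all genes. The median log2 fold change was 2.32. Siglech, a sialic acid-binding receptor on chromosome 7 (mm10 positions 55768178 to 55778925), had 6.65, 8.27 and 7.01 CPM in PLX3X_CD30, against 0.324, 0.485 and 0.187 CPM in PLX3X_CD0. Its log2 fold change of 4.45 (SE 0.295, adjusted p = 3.69e-07) was the largest of the list. P2ry12, the ADP receptor that steers microglial processes, had 13.3, 11.8 and 10.5 CPM in PLX3X_CD30 and 1.62, 2.58 and 1.34 CPM in PLX3X_CD0 (log2 fold change 2.68, SE 0.22, adjusted p = 1.04e-05). Tmem119, a surface protein used to tell microglia from other macrophages, had 20.9, 19.7 and 19.3 CPM in PLX3X_CD30 and 2.65, 5.32 and 2.56 CPM in PLX3X_CD0 (log2 fold change 2.51, SE 0.25, adjusted p = 0.000132). For these genes the groups did not overlap.

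The rise of P2ry13, a relative of P2ry12, had an adjusted p of 0.0218 and was lost in 5 of the 6 fits that left out a library, with adjusted p-values of 0.053 to 0.0952. It was kept without PLX3X_CD0 replicate 2, where its log2 fold change was 4.85 instead of 3.70. The 2 members that were not called were Sall1 and Sall3, transcription factors, of which Sall1 is known to maintain microglial identity. Sall1 had 12.8, 11.9 and 17.8 CPM in PLX3X_CD30 and 9.00, 26.7 and 11.2 CPM in PLX3X_CD0, with a log2 fold change of -0.15 (SE 0.42, adjusted p = 0.926). Its groups overlapped, and the highest and lowest libraries were both PLX3X_CD0. Sall1 and Sall3 stood at 61.5% and 84.0% of the NT mean in PLX3X_CD0, and at 55.6% and 70.6% in PLX3X_CD30. Sall1 was not called lower than NT in either group (adjusted p = 0.269 in PLX3X_CD0 and 0.277 in PLX3X_CD30). The list's median stood at 38.9% of the NT mean in PLX3X_CD30 and at 7.60% in PLX3X_CD0. Its 11 members that rose ran in PLX3X_CD30 from 15.5% of the NT mean for the crystallin gene Crybb1 to 71.1% for Olfml3, an olfactomedin-like secreted protein. In PLX3X_CD0 these 11 ran from 1.75% for Siglech to 22.9% for Olfml3, below Sall1 and Sall3. Summed over the 11 genes, without Sall1 and Sall3, the level was 135, 127 and 122 CPM in PLX3X_CD30 and 29.2, 40.4 and 25.8 CPM in PLX3X_CD0. With Sall1 and Sall3 it was 158, 149 and 153 CPM in PLX3X_CD30 and 46.1, 91.6 and 45.02 CPM in PLX3X_CD0.

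**Figure D2:**
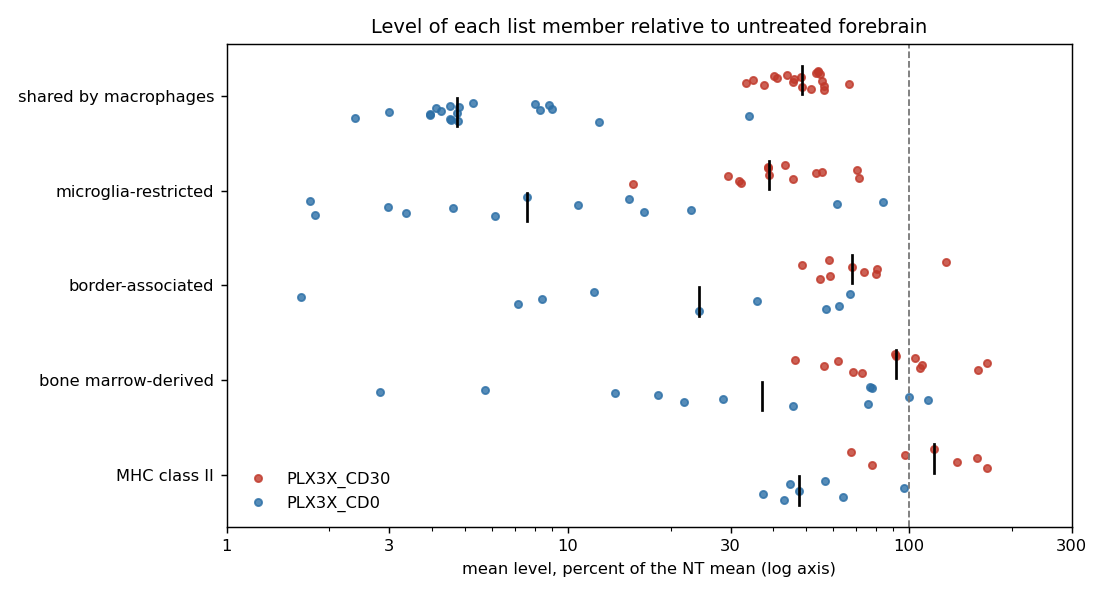
Mean level of each tested list member as a percent of the NT mean (log axis), with PLX3X_CD30 and PLX3X_CD0 as separate points and lists down the page. The medians of the shared macrophage list were 48.7% in PLX3X_CD30 and 4.73% in PLX3X_CD0, and those of the bone marrow-derived list were 91.5% and 37.1%. Members of the bone marrow-derived list ran from 46.2% to 169% in PLX3X_CD30 and from 2.82% to 114% in PLX3X_CD0.

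Most of the listed regulators of myeloid cells rose as well. Of 8 myeloid transcription factors tested of 9 listed, 6 rose and 0 fell, beside 1.87% and 1.93% of all genes. The median log2 fold change was 1.04. Spi1, which encodes PU.1, the factor that sets up macrophage gene expression, had 2.90, 2.32 and 4.16 CPM in PLX3X_CD30 and 0.203, 0.660 and 0.149 CPM in PLX3X_CD0 (log2 fold change 3.20, SE 0.44, adjusted p = 0.000563). The Spi1 groups did not overlap, and the log2 fold change was 4.14 without PLX3X_CD0 replicate 2. The interferon regulatory factors Irf8 and Irf5 rose by 1.52 and 1.39 on the log2 scale, and Ikzf1, the lymphoid and myeloid factor Ikaros, rose by 1.32. Cebpa and Runx1 were not called. Of 11 kinases and adaptors of myeloid signalling, 11 were tested, 8 rose and 0 fell, beside the same shares of all genes. The median log2 fold change of the 11 was 1.87. Cd33, an inhibitory sialic acid-binding receptor, had the smallest adjusted p of that list (log2 fold change 3.64, SE 0.36, adjusted p = 1.11e-05). Its log2 fold change was 4.402 without PLX3X_CD0 replicate 2. The tyrosine kinases Syk and Lyn and the adaptor Blnk were not called.

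Promoters are shown for the 4 called members of the shared and restricted lists with the smallest adjusted p among those with a promoter in the RefSeq table, because PU.1 is known to bind macrophage promoters at GAGGAAG. Each sequence runs 5′ to 3′ from 250 bases before to 50 bases after the gene's start (RefSeq, GRCm38.p6), and capitals mark GAGGAAG or its reverse complement CTTCCTC. Fcgr3 lies at chr1:171059354-171059653 on the minus strand, Siglech at chr7:55767934-55768233 on the plus strand, Csf3r at chr4:126024409-126024708 on the plus strand and Cd53 at chr3:106790100-106790399 on the minus strand.
Fcgr3: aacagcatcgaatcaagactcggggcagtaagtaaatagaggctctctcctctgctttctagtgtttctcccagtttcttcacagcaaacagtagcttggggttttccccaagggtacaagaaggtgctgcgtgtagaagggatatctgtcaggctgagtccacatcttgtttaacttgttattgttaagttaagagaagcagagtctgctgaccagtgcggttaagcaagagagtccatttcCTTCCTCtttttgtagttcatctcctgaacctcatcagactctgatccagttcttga
Siglech: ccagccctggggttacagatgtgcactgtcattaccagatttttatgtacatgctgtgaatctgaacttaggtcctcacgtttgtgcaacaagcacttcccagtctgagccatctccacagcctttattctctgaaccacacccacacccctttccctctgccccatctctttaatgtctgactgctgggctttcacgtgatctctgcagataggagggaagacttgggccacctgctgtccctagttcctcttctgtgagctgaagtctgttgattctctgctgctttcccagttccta
Csf3r: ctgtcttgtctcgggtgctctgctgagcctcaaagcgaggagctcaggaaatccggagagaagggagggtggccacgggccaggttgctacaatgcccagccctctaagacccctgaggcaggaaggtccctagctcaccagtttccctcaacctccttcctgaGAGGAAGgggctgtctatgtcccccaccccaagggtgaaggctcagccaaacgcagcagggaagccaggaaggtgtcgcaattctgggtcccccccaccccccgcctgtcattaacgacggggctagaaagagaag
Cd53: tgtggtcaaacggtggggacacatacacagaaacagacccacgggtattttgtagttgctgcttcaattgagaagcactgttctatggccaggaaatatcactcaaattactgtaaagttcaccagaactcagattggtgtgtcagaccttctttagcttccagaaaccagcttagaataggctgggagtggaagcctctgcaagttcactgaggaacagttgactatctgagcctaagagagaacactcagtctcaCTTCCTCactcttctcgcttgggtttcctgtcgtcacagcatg
Read on both strands, GAGGAAG was in 3658 of 27025 promoters of the table (13.5%). It was in 10 of 24 promoters found for the 2 lists (41.7%) and in 47 of 128 found for the 187 genes, described further on, that rose and were at least 2-fold lower in PLX1X than in NT (36.7%). Of the 421 genes that fell, 350 had a promoter in the table and 43 of these held it (12.3%). A match describes the letters in this window and is not a measured binding site.

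Some lysosomal and pattern-recognition genes rose. Of 9 lysosomal and cytoskeletal genes of macrophages, 9 were tested and 4 rose, beside 1.87% of all genes. The list had a median log2 fold change of 0.36, with medians of 87.8% of the NT mean in PLX3X_CD30 and 72.1% in PLX3X_CD0. The 4 were the actin bundler Lcp1 and the proteases Ctsh, Ctsc and Lgmn, with log2 fold changes of 1.4998, 0.68, 0.84 and 0.27. Of 11 genes of Toll-like receptor sensing, 11 were tested and 2 rose, beside 1.87% of all genes, with a median log2 fold change of 0.68. These were Tlr13, a receptor for bacterial ribosomal RNA (log2 fold change 2.78, adjusted p = 0.0199), and Cd14, a co-receptor for lipopolysaccharide (1.68, adjusted p = 0.0333). Without PLX3X_CD0 replicate 2 the log2 fold change of Tlr13 was 4.56. Leaving out a library ended the Tlr13 call in 5 of 6 fits (adjusted p 0.0579 to 0.0729) and the Cd14 call in 4 (0.0658 to 0.188). Leaving out a library likewise ended the Ctsc call in 5 fits (0.0562 to 0.113) and the Lgmn call in 2 (0.0694 and 0.0759).

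Some genes linked to bone marrow-derived macrophages rose. Of 15 listed, 12 were tested, 5 rose and 0 fell, beside 1.87% and 1.93% of all genes. The median log2 fold change was 0.83, with medians of 91.5% of the NT mean in PLX3X_CD30 and 37.1% in PLX3X_CD0. The median of 91.5% lies between the uncalled Tmem176b and Tmem176a, which were at 76.9% and 78.0% in PLX3X_CD0. Clec12a, Emilin2 and Ly6c2, not called either, were at 75.9%, 114% and 100% there. The 5 members that rose ran from 56.4% for Hpgd to 169% for Lyz2 in PLX3X_CD30. In PLX3X_CD0 these 5 ran from 5.71% for Ms4a7 to 28.5% for Hpgd. Lyz2, the macrophage lysozyme, had 16.4, 15.1 and 39.6 CPM in PLX3X_CD30, 2.43, 3.07 and 2.26 CPM in PLX3X_CD0, and 10.0, 18.1 and 14.0 CPM in NT. The 3 PLX3X_CD30 libraries were all above PLX3X_CD0, and replicate 3 alone was above all NT libraries. Its log2 fold change was 3.20 (SE 0.37, adjusted p = 0.000628), and 2.60 without PLX3X_CD30 replicate 3. Ms4a7, a membrane protein of marrow-derived and border macrophages, had 0.496, 0.209 and 1.08 CPM in PLX3X_CD30 and 0.0608, 0 and 0.0373 CPM in PLX3X_CD0 (adjusted p = 0.00516). Replicate 3 was the highest PLX3X_CD30 library, and the level in PLX3X_CD0 is too low to size the change. In the test against NT, 0 of the 12 genes were higher in PLX3X_CD30 and 1, Hpgd, was lower, beside 4.74% and 1.84% of all genes. The other members that rose were the NADPH oxidase subunit Cybb, the prostaglandin-degrading enzyme Hpgd and Ms4a6b. Ccr2, Clec12a, Emilin2, Ly6c2, Ms4a6c, Tmem176a and Tmem176b were not called. The list's summed level was 68.5, 72.9 and 95.6 CPM in PLX3X_CD30 and 47.3, 52.3 and 43.6 CPM in PLX3X_CD0. With a library left out, 2 to 4 members rose, with 2 without PLX3X_CD30 replicate 3, 2 without PLX3X_CD0 replicate 1 and 3 without PLX3X_CD0 replicate 3. The Cybb call was lost in 3 of these fits (adjusted p 0.0775 to 0.087) the Ms4a6b call in 3 (0.0574 to 0.103) and the Hpgd call in 5 (0.0542 to 0.0852).

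Of 10 listed genes of border-associated macrophages, 9 were tested, 4 rose and 0 fell, beside 1.87% and 1.93% of all genes. The median log2 fold change was 1.17. Cbr2, Cd163, Clec10a, Lyve1 and Siglec1 were not called. Among these, Cd163 had mean levels of 2.66 CPM in PLX3X_CD30 and 2.60 CPM in PLX3X_CD0 (log2 fold change 0.03, SE 0.24, adjusted p = 0.974). F13a1, the A chain of coagulation factor XIII, had 4.54, 3.18 and 3.03 CPM in PLX3X_CD30 and 0.304, 0.311 and 0.429 CPM in PLX3X_CD0 (log2 fold change 3.35, SE 0.29, adjusted p = 1.44e-06). Mrc1, the mannose receptor, had 3.08, 1.62 and 2.39 CPM in PLX3X_CD30 and 0.345, 0.214 and 0.317 CPM in PLX3X_CD0 (log2 fold change 3.01, SE 0.40, adjusted p = 0.000165). The groups were apart in both genes, and their PLX3X_CD30 means stood at 73.8% and 67.9% of the NT mean. The scavenger receptor Stab1 rose by 2.29 on the log2 scale. Pf4, the chemokine platelet factor 4, rose too (adjusted p = 0.00148), but its level of 0 to 0.0388 CPM in PLX3X_CD0 is too low to size the change.

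Antigen presentation was called in 2 genes. Cd74, the invariant chain of MHC class II, had 10.5, 7.41 and 23.8 CPM in PLX3X_CD30 and 3.22, 3.92 and 3.51 CPM in PLX3X_CD0, with 5.00, 13.9 and 5.81 CPM in NT. PLX3X_CD30 replicate 3 was the highest, and the groups did not overlap (log2 fold change 1.97, SE 0.46, adjusted p = 0.0395). The Cd74 call was lost in 5 of 6 fits that left out a library (adjusted p 0.0724 to 0.139), and without PLX3X_CD30 replicate 3 the log2 fold change was 1.33. It was the 1 member of 7 tested class II genes to rise in edgeR's test, while DESeq2 called 4, adding the class II chains H2-Aa, H2-Ab1 and H2-Eb1. The summed level of that list was 36.1, 31.8 and 56.3 CPM in PLX3X_CD30 and 23.7, 24.6 and 23.4 CPM in PLX3X_CD0. Of 9 class I genes tested, B2m, the light chain of class I molecules, rose by 0.49 on the log2 scale (SE 0.10, adjusted p = 0.00694) and the others were not called.

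Interferon-response genes were not called. Of 30 listed and 30 tested, 0 passed edgeR's quasi-likelihood test and 0 passed in DESeq2, and 0 had an unadjusted p under 0.05, beside 7.55% of all genes higher and 7.94% lower at that level. Their median log2 fold change was -0.14, and their summed level was 141, 142 and 146 CPM in PLX3X_CD30 and 136, 210.0 and 134 CPM in PLX3X_CD0, where replicate 2 was the highest. Of 17 tested genes of disease-associated microglia, 3 rose, beside 1.87% of all genes. Trem2, a lipid receptor of microglia, had 9.24, 9.14 and 8.63 CPM in PLX3X_CD30 and 1.46, 2.00 and 1.25 CPM in PLX3X_CD0 (log2 fold change 2.52, SE 0.16, adjusted p = 5.66e-08). Trem2 was thus far apart between the groups, at 46.7% of the NT mean in PLX3X_CD30. Cd52, a small surface glycoprotein of leukocytes, rose by 2.24 on the log2 scale (SE 0.38), and the lysosomal protease Ctsd by 0.33. The Ctsd call was lost in 4 of 6 fits that left out a library (adjusted p 0.0609 to 0.0966). The lipid carrier Apoe had a log2 fold change of 0.14 (adjusted p = 0.456), the protease inhibitor Cst7 of 1.37 (adjusted p = 0.301) and the lipase Lpl of -0.07 (adjusted p = 0.801). Of 9 cytokine and ligand genes tested of 14 listed, Tgfb1, the growth factor that microglia need to keep their identity, rose by 1.14 (SE 0.22, adjusted p = 0.00484) to 54.1% of the NT mean.

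The PLX1X and NT libraries, which are in neither group of the main comparison, gave a choice of genes that are low after PLX 1x. They do enter the fit to 15 libraries, from which the spread of both comparisons was estimated. In PLX1X, 641 genes were at least 2-fold lower than in NT (2.94% of those tested). Of these, 187 rose in PLX3X_CD30 (29.2%), 0 fell and 454 were not called, beside 1.87% of all genes that rose, and the median log2 fold change of the 641 was 0.74. With each comparison fitted to its own 6 libraries, the count of rises was 165. Of the 266 genes at least 4-fold lower in PLX1X, 134 rose (50.4%), with a median of 1.68. At any size of fall, 1768 genes were lower in PLX1X (8.12% of those tested), of which 297 rose and 4 fell. Among the 4 were Dok6, Ptpn13 and Trank1, named after their values were seen. Leaving out a library ended the Dok6 call in 4 fits (adjusted p 0.0728 to 0.145) and the Ptpn13 call in 5 (0.101 to 0.16). The 187 make up 45.9% of the 407 genes that rose. Their median level was 54.3% of the NT mean in PLX3X_CD30 and 11.4% in PLX3X_CD0. Of the 187, 84 were lower than NT in PLX3X_CD30 and 0 were higher, beside 1.84% and 4.74% of all genes. In PLX3X_CD0, 186 were lower than NT, beside 9.53%. The 187 were chosen with these same NT and PLX3X_CD0 libraries, so their levels relative to NT are partly set by the choice.

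The 454 genes without a call were weaker in count and had fallen less in PLX1X. Their median log2 fold change in PLX1X against NT was -1.52, against -2.78 for the 187. Their median average level was -0.64 on the log2 CPM scale, against 0.96 for the 187. Protein-coding genes made up 31.5% of the 454 and 87.2% of the 187. Of the 454, 373 had a positive log2 fold change, with a median of 0.47, and 134 had an unadjusted p under 0.05. Among the 187 were genes on no list, named here after their values were seen. Pld4, a lysosomal nuclease, rose by 3.07 on the log2 scale (adjusted p = 1.13e-06), the inhibitory receptor Havcr2 by 4.10 (4.77 without PLX3X_CD0 replicate 2), the integrin chain Itgb2 by 2.76, the complement receptor C5ar1 by 3.46 and the T cell co-stimulator Cd86 by 2.95.

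**Figure D3:**
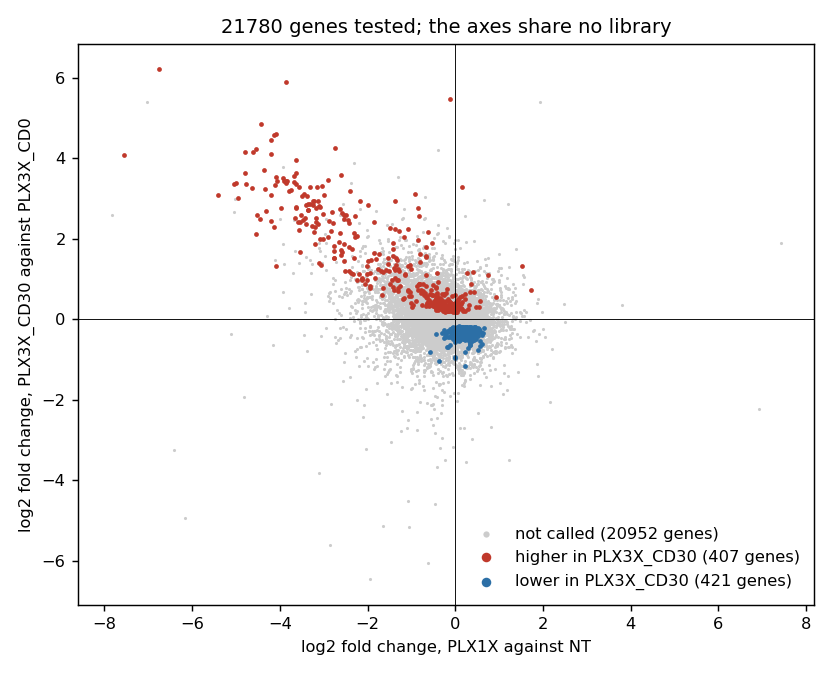
Log2 fold change of PLX3X_CD30 against PLX3X_CD0 (y axis) over that of PLX1X against NT (x axis) for the 21780 genes tested, coloured by call; the axes share no library. The 187 genes that were at least 2-fold lower in PLX1X and rose in PLX3X_CD30 lie in the upper left.

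Beyond macrophages, the called changes in the listed genes were small. The 13 macrophage and immune lists held 164 tested genes, of which 65 rose (39.6%) and 0 fell. Their median log2 fold change was 0.55. The 24 lists of other cells and pathways held 259 tested genes, of which 11 rose (4.25%) and 3 fell (1.16%), beside 1.87% and 1.93% of all genes, with a median of -0.01. The 24 lists covered, among others, astrocytes, the oligodendrocyte lineage, neurons, vessels, meninges, lymphocytes, cholesterol synthesis and the circadian clock. None of their called members changed by 2-fold, the largest log2 fold change being 0.93.

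In the oligodendrocyte lineage, Bcas1, a marker of newly formed oligodendrocytes, had 106, 104 and 97.8 CPM in PLX3X_CD30 and 71.5, 68.6 and 73.5 CPM in PLX3X_CD0, with 181, 135 and 136 CPM in NT. Its groups were apart, and it rose by 0.52 on the log2 scale (SE 0.09, adjusted p = 0.00224), to 67.7% of the NT mean. It was the 1 gene of 8 tested in its list to rise. Mbp, myelin basic protein, had 3338, 3460 and 3504 CPM in PLX3X_CD30 and 2759, 2796 and 3047 CPM in PLX3X_CD0 (log2 fold change 0.26, SE 0.07, adjusted p = 0.0350). The Mbp call was lost in 5 of the 6 fits that left out a library, all but that without PLX3X_CD0 replicate 3, with adjusted p-values of 0.0894 to 0.17. It was the 1 gene of 16 tested myelin genes to rise. Of 9 tested precursor genes, the lineage factor Olig2 rose by 0.38 and the proteoglycan Cspg4 fell by 0.34. Each of these calls was lost in 5 of the 6 fits that left out a library, with adjusted p-values of 0.0562 to 0.142 for Olig2 and 0.0954 to 0.136 for Cspg4.

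In astrocytes, 1 of 14 tested marker genes rose, the glutamate transporter Slc1a2 (log2 fold change 0.26, adjusted p = 0.0416). The Slc1a2 call was lost in 5 of the 6 fits that left out a library (adjusted p 0.053 to 0.202). Of 14 tested genes of reactive astrocytes, 0 passed edgeR's quasi-likelihood test, 0 passed in DESeq2 and 1 had an unadjusted p under 0.05. Gfap, the filament protein that marks reactive astrocytes, was not called (log2 fold change -0.30, adjusted p = 0.600). Without a filter on low counts Gfap was called, at an adjusted p of 0.000399. Of 15 neuronal genes tested, the postsynaptic scaffold Dlg4 rose by 0.24 and the dendritic protein Map2 fell by 0.24, and leaving out a library ended the Dlg4 call in 5 fits (adjusted p 0.0557 to 0.153) and the Map2 call in 4 (0.0584 to 0.0821). In the cholesterol list, 1 of 21 tested genes was called, lanosterol synthase (Lss), with 40.1, 37.4 and 39.7 CPM in PLX3X_CD30 and 49.1, 51.1 and 47.7 CPM in PLX3X_CD0. Lss fell by 0.34 on the log2 scale (SE 0.06, adjusted p = 0.00346), with its groups apart.

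Clock genes were the list outside macrophages with the most calls. Of 15 tested, 3 rose, beside 1.87% of all genes, with a median log2 fold change of 0.21. At an unadjusted p under 0.05, 8 of the 15 were higher and 2 were lower, beside 7.55% and 7.94% of all genes. Ciart, a repressor of the CLOCK and BMAL1 pair, had 27.7, 26.4 and 17.3 CPM in PLX3X_CD30 and 14.0, 14.0 and 15.0 CPM in PLX3X_CD0 (log2 fold change 0.73, SE 0.14, adjusted p = 0.00704). Per2, another repressor, had 71.6, 76.7 and 50.9 CPM in PLX3X_CD30 and 42.4, 44.9 and 47.6 CPM in PLX3X_CD0 (log2 fold change 0.56, SE 0.13, adjusted p = 0.0260). In both genes PLX3X_CD30 replicate 3 was the lowest of its group and lay close to PLX3X_CD0. The Per2 call was lost in 5 of the 6 fits that left out a library, with adjusted p-values of 0.062 to 0.12, and held without PLX3X_CD30 replicate 3. It was also lost with the replicate number as a block (adjusted p = 0.0513) and in a fit to the 6 libraries compared (0.143). The nuclear receptor Nr1d1 rose by 0.30, a call lost in 4 such fits (adjusted p 0.0829 to 0.114). Against the NT mean, Ciart, Per2 and Nr1d1 stood at 198%, 145% and 139% in PLX3X_CD30, and at 119%, 98.4% and 113% in PLX3X_CD0. All 3 were called higher than NT in PLX3X_CD30 (adjusted p = 0.00115, 0.0255 and 0.000882), so these rises led away from the NT level. They were also called higher than NT in PLX1X (log2 fold changes 1.73, 0.92 and 0.55). Clock transcripts follow the hour of the day, and the labels give no hour of collection, so time and group cannot be told apart.

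The Ciart promoter is shown as that of the clock gene with the largest change among those called. It lies at chr3:95882179-95882478 on the minus strand (RefSeq, GRCm38.p6), is printed 5′ to 3′, and capitals mark CACGTG, the palindromic E-box that CLOCK and BMAL1 are known to bind.
Ciart: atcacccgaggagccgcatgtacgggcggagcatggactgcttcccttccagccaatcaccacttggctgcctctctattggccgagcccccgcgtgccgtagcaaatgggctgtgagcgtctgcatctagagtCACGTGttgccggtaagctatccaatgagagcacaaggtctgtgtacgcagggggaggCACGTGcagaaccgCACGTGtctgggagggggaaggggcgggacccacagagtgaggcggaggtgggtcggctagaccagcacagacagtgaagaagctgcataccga
It holds 3 matches, while the promoter of Nr1d1, another called clock gene, held 0. CACGTG was in 5 of 14 clock promoters found in the table (35.7%). It was in 9.47% of the promoters of genes tested and in 7.24% of all promoters of the table, and a match is a description of letters only.

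Egr1, an immediate early factor induced by neuronal activity, had 862, 895 and 655 CPM in PLX3X_CD30 and 487, 459 and 562 CPM in PLX3X_CD0 (log2 fold change 0.68, SE 0.16, adjusted p = 0.0416). PLX3X_CD30 replicate 3 was again the lowest of its group, and the call was lost in 5 of the 6 fits that left out a library (adjusted p 0.0645 to 0.158). It was the 1 gene of 13 tested immediate early genes to rise. The summed level of striatal neuron genes was 2579, 3068 and 1920 CPM in PLX3X_CD30 and 2272, 2496 and 3417 CPM in PLX3X_CD0. PLX3X_CD30 replicate 3 was also lowest there, and what sets that library apart was not tested. Without PLX3X_CD30 replicate 3 the log2 fold changes were 0.80 for Egr1, 0.92 for Ciart and 0.72 for Per2, each with an adjusted p under 0.05. Tsc22d3, a target of the glucocorticoid receptor, rose by 0.31 (SE 0.06, adjusted p = 0.00382), the 1 gene of 10 tested in its list. Ighm, the constant part of the IgM heavy chain, had 41.5, 39.4 and 35.9 CPM in PLX3X_CD30 and 26.0, 18.8 and 16.6 CPM in PLX3X_CD0 (log2 fold change 0.93, SE 0.16, adjusted p = 0.00567). The 7 lymphocyte genes tested held no other call. At an unadjusted p under 0.05, 2 of the 7 were higher and 0 were lower, beside 7.55% and 7.94% of all genes. The B cell receptor chains Cd79a and Cd79b had adjusted p-values of 0.738 and 0.187.

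**Figure D4:**
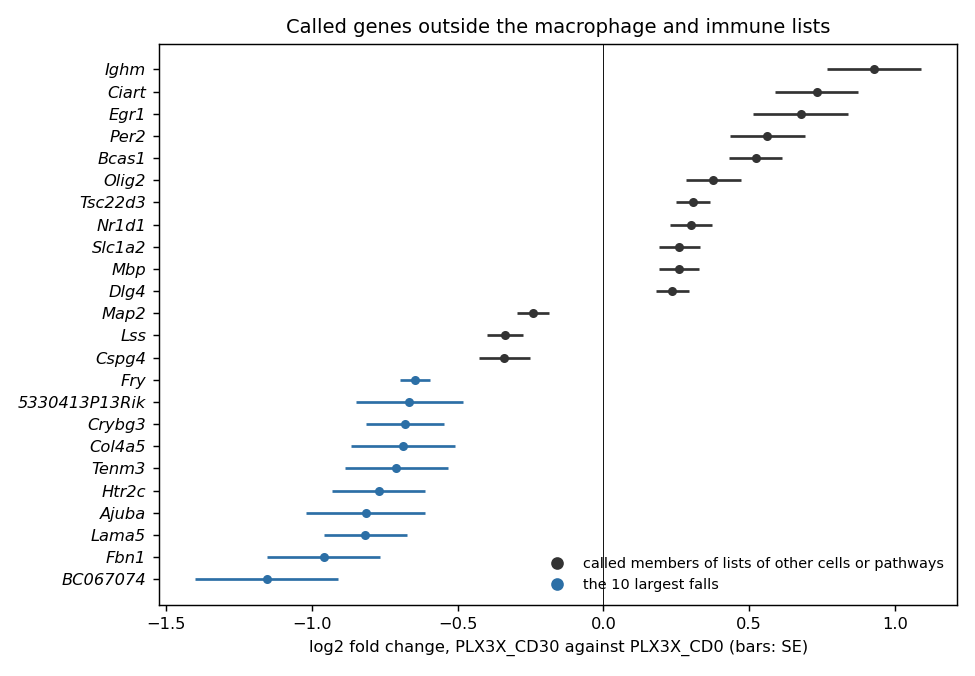
Log2 fold change of PLX3X_CD30 against PLX3X_CD0 with SE bars for called genes outside the macrophage and immune lists, with members of other lists and the 10 largest falls in separate colours. The largest fall is BC067074 at -1.16, and Ighm is the largest rise among the members of other lists at 0.93.

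Of the 407 genes that rose, 110 were not called lower in PLX1X against NT, which does not show that they were unaffected there. Ccr1 and Mgl2, for example, had log2 fold changes of -2.75 and -1.48 in PLX1X against NT without passing the test (adjusted p = 0.0964 and 0.0687). Their median log2 fold change was 0.40, and 22 reached 2-fold. The 110 had medians of 105% of the NT mean in PLX3X_CD30 and 77.5% in PLX3X_CD0. They were chosen as higher in PLX3X_CD30 than in PLX3X_CD0, so these levels are partly set by the choice. Of these 110, 96 were protein-coding, and 10 of the 96 reached 2-fold, namely Ccr1, Cd74, Cdca5, Klf2, Ly9, Mall, Mgl2, Pilra, Slamf9 and Zfp296. In PLX3X_CD0, Ccr1 (0 to 0.0373 CPM) and Pilra (0.0388 to 0.0746 CPM) were too low to size the change. Ly9, Cdca5, Mgl2, Slamf9 and Mall had means of 0.0788 to 0.222 CPM there, which leaves the size uncertain. The adjusted p was 0.0426 for Cdca5 and 0.0490 for Mall. Apart from Cd74 and Klf2, the 10 were not followed singly in the fits that left out a library. Klf2, a zinc finger factor of endothelium and leukocytes, had 16.7, 14.4 and 11.7 CPM in PLX3X_CD30 and 5.73, 6.83 and 6.42 CPM in PLX3X_CD0, with 10.4, 8.77 and 9.97 CPM in NT. Its groups were apart (log2 fold change 1.17, SE 0.20, adjusted p = 0.00302). Among genes with smaller changes, Pfkfb3, which sets the level of a glycolysis activator, had 32.2, 34.4 and 29.2 CPM in PLX3X_CD30 and 20.9, 20.7 and 22.8 CPM in PLX3X_CD0 (log2 fold change 0.57, SE 0.09, adjusted p = 0.000643). Hspa5, the chaperone BiP of the endoplasmic reticulum, had 389, 411 and 398 CPM in PLX3X_CD30 and 321, 282 and 301 CPM in PLX3X_CD0 (log2 fold change 0.41, SE 0.08, adjusted p = 0.00427). Pfkfb3 and Hspa5 stood at 96.6% and 100% of the NT mean in PLX3X_CD30, against 64.9% and 75.5% in PLX3X_CD0. Apart from Cd74, which the naming rule fixed, these genes were named after their values were seen. With a library left out, 26 to 63 of the 110 were still called.

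The 421 genes that fell were, with 3 exceptions, protein-coding, and most were above NT in PLX3X_CD0. The 3 exceptions were 5330413P13Rik, Gm38077 and Oip5os1. Their median level was 108% of the NT mean in PLX3X_CD30 and 134% in PLX3X_CD0. In the tests against NT, 388 were higher in PLX3X_CD0 and 0 were lower, beside 12.2% and 9.53% of all genes. In PLX3X_CD30, 102 were higher than NT and 4 were lower, beside 4.74% and 1.84%. The 421 were chosen with these same PLX3X_CD30 and PLX3X_CD0 libraries, so their levels and counts relative to NT are partly set by the choice. In the PLX1X comparison, which shares no library with these groups, 213 of the 421 were higher than NT (50.6%), beside 9.97% of all genes. The 421 had longer transcripts (median 7127 bases) and higher average levels (median log2 CPM 6.26) than all genes (2779 bases and 2.94). In the length measure given further on, the 3 PLX1X libraries also lay above the 3 NT libraries. What part transcript length has in the 50.6% was not tested. The smallest adjusted p belonged to Fry, a large protein of cell shape on chromosome 5 (mm10 positions 150118645 to 150497753), with 136, 135 and 134 CPM in PLX3X_CD30, 199, 212 and 221 CPM in PLX3X_CD0 and 116, 127 and 114 CPM in NT. The 3 PLX3X_CD0 libraries were all above those of both other groups, and the log2 fold change was -0.65 (SE 0.05, adjusted p = 7.75e-07).

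Among the 10 largest falls were a microfibril protein and a laminin chain. Fbn1, the microfibril protein fibrillin-1, had 4.25, 3.34 and 5.75 CPM in PLX3X_CD30 and 9.69, 7.78 and 8.51 CPM in PLX3X_CD0 (log2 fold change -0.96, SE 0.19, adjusted p = 0.00657). Lama5, a laminin chain of basement membranes, had 4.83, 4.86 and 4.42 CPM in PLX3X_CD30 and 8.83, 9.04 and 6.96 CPM in PLX3X_CD0 (log2 fold change -0.82, SE 0.14, adjusted p = 0.00218). Neither gene's groups overlapped, and their means stood at 105% and 112% of the NT mean in PLX3X_CD30 against 205% and 198% in PLX3X_CD0. The Fbn1 call was lost without PLX3X_CD30 replicate 2 (adjusted p = 0.054). The collagen chain Col4a5 fell by 0.69, the adhesion protein Tenm3 by 0.71 and the serotonin receptor Htr2c by 0.77. The LIM-domain scaffold Ajuba fell by 0.82, Crybg3 by 0.68, the non-coding 5330413P13Rik by 0.67 and BC067074, the largest fall, by 1.16. Leaving out a library ended the calls of Tenm3 and 5330413P13Rik in 6 of 6 fits, those of Ajuba, Col4a5 and Htr2c in 5 and that of BC067074 in 3. The adjusted p-values of those fits were 0.0507 to 0.214, and the largest were 0.194 for Tenm3, 0.145 for Ajuba, 0.186 for Col4a5, 0.0746 for Htr2c and 0.0702 for BC067074.

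The falls were concentrated in long transcripts. The longest annotated transcript had a median of 7127 bases among the 421 genes that fell and of 2926 bases among the 407 that rose, against 2779 bases over all genes tested and 3892 bases over protein-coding genes whose average log2 CPM was 5 or more. These 6261 well-expressed genes were divided by length into 10 groups of about equal size. In the group of shortest transcripts 0.16% fell, and in the group of longest transcripts, of 7513 to 40378 bases, 22.8% fell. The libraries differed in this respect as a whole. The median deviation of long genes minus that of short genes was -0.01, -0.00 and -0.03 on the log2 scale in PLX3X_CD30 and 0.13, 0.10 and 0.14 in PLX3X_CD0, so the 3 PLX3X_CD0 libraries all lay above the 3 PLX3X_CD30 libraries. It was 0.01, 0.02 and -0.01 in PLX1X and -0.05, -0.03 and -0.06 in NT. With a per-library correction for transcript length and GC content, 393 genes rose and 312 fell. Of the original calls 321 rises and 251 falls were among them, as were 60 of the 110 rises not called lower in PLX1X, and the median log2 fold change of the 421 genes was -0.24. Of the genes given above as called and followed singly through the runs, Cd74, Col4a5, Cspg4, Egr1, Hpgd, Map2, Olig2, Ptpn13, Tenm3 and Trank1 were not called under that correction. Ccr1, Cdca5, Crybb1, Gm38077, Ly9, Mall, Mgl2, Oip5os1, Olfml3, Pilra, Slamf9 and Zfp296 were not followed singly. Length bias and group cannot be told apart, since all PLX3X_CD0 libraries carry it, and its part in single falls was not tested further.

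**Figure D5:**
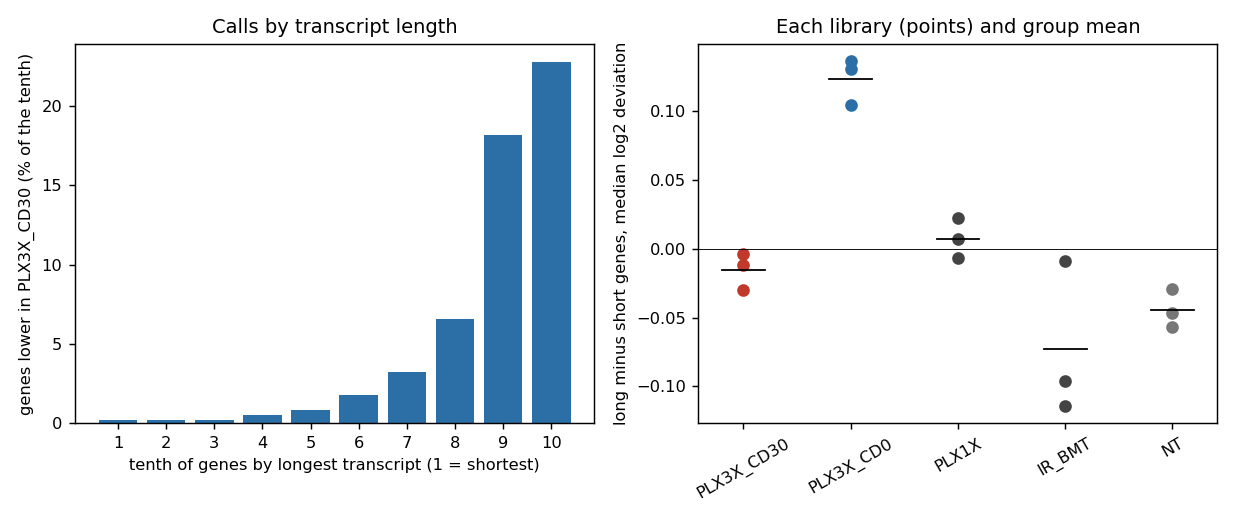
Left, share of well-expressed protein-coding genes that fell in PLX3X_CD30 in 10 groups by longest transcript, with 0.16% in the group of shortest and 22.8% in the group of longest transcripts. Right, median log2 deviation of long minus short genes in each library (points) with group means, where the PLX3X_CD0 libraries lie at 0.10 to 0.14 and the PLX3X_CD30 libraries at or below 0.

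Choroid plexus genes differed in PLX3X_CD0 replicate 1 alone. Their summed level was 24.4, 21.7 and 17.0 CPM in PLX3X_CD30 and 1705, 34.4 and 24.2 CPM in PLX3X_CD0. Of the 9 listed genes, 0 passed edgeR's quasi-likelihood test and 0 passed in DESeq2, while 9 had an unadjusted p under 0.05. The median log2 ratio of the group means over the list was -3.38, and -0.28 without that library, with 0.1 CPM added to each mean. Markers of endothelium, mural cells, meninges, ependyma, neutrophils, red cells, dividing cells and new neurons held 0 calls in edgeR's quasi-likelihood test and 0 in DESeq2, with 1 gene, in the mural cell list, at an unadjusted p under 0.05. Markers of striatal, thalamic, hypothalamic and cortical neurons held 0 calls in edgeR's test, with 2 genes each in the thalamic, hypothalamic and cortical lists at an unadjusted p under 0.05. DESeq2 called 1 gene in each of those 3 lists, Rora, Avp and Rspo1, all higher in PLX3X_CD30. Neuron genes identified the tissue as brain, with summed levels of 14150, 14170 and 14680 CPM in PLX3X_CD30 and 14390, 13220 and 14450 CPM in PLX3X_CD0.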

How the data were processed

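Bulk forebrain RNA of 5 groups was sequenced, with 3 libraries per group and 15 in all. Library names in the descriptions set the groups, and the titles gave the replicate numbers. The authors deposited raw counts per gene, with no normalization, and these counts were used here. The SMARTer Ultra Low kit named in the labels' protocols does not mark strand, so antisense and overlapping genes cannot be told apart. Counts of near-identical copies (Lyz2 and the H2 genes) are uncertain too. The submitters' processing notes name DRAGEN, DESeq2 and the build mm10. The role and version of each tool, the annotation and strand handling were not given in the sources used here.

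Of 55774 rows, 287 repeated an identifier and were dropped, which left 55487. GENCODE M21, which holds 55227 of them, supplied positions and lengths. Totals ran from 19249641 to 54801136. In each library 70.6% to 74.7% of the counts of 1 to 4 were even, so 1 count stands for less than 1 independent fragment. The tests rest on the spread between libraries, and no pair of replicates agreed within sampling noise.

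With edgeR 4.0.16 in R 4.3.3, 1 model with a mean for every group was fitted to all libraries, using TMM factors, filterByExpr (21780 genes left) and robust quasi-likelihood dispersions. The biological coefficient of variation was 12.1%. F-tests were two-sided, with Benjamini-Hochberg adjustment and a threshold of 0.05. An SE is the size of the log2 fold change divided by the square root of F. Percent of NT is the ratio of group mean CPM.

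The 37 lists hold 450 genes, of which 423 were tested. The naming rule took the 10 largest rises and the 10 largest falls among called genes whose groups did not overlap and whose average log2 CPM was 1 or more. It added 22 fixed genes and, from each list with a call, up to 4 members by adjusted p. Not all of the 75 genes it gave are printed, and some results are not reported here. The libraries, lists and rule were chosen with earlier results of these data known. The test was repeated with DESeq2 1.42.0, with RLE size factors, with no filter or with one of CPM 1 in 3 libraries, on only the 6 libraries compared, with a block for the replicate number, with other fold thresholds for PLX1X, with each library left out, and with an offset for length and GC content (loess span 0.3, lengths known for 99.9% of genes tested).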

Additional observations from a re-analysis of the deposited data

How the results depend on the processing

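The 407 rises and 421 falls became 559 and 635 with DESeq2, 387 and 402 with RLE size factors, 557 and 838 without a filter, 451 and 402 with a stricter filter, and 539 and 640 in a fit to the 6 libraries compared. No gene named by the rule that was called changed direction in any alternative run; Sall1, not called, had a log2 fold change of 0.48 without PLX3X_CD0 replicate 2. The 187 rises among genes at least 2-fold lower in PLX1X became 134 at 4-fold and 297 with no fold threshold, and 5 rises among genes of bone marrow-derived macrophages became 3 in the 6-library fit. Leaving out a library gave 199 to 303 rises, 185 to 285 falls, 133 to 176 rises among genes lower in PLX1X, 18 to 19 for shared macrophage genes, 9 to 11 for microglia-restricted genes and 2 to 4 for genes of bone marrow-derived macrophages; the border-associated count stayed at 4. Of 70 called genes among the 75 that the naming rule gave, 45 were called in every such fit and 25 were lost in at least 1. In the 6-library fit 9 of the 70 missed the threshold: C1qa (adjusted p = 0.0559), Ciart (0.0515), Cd74 (0.131), Per2 (0.143), Ctsd (0.114), Egr1 (0.0779), Tenm3 (0.0655), Col4a5 (0.0572) and 5330413P13Rik (0.0514). Same-numbered PLX3X_CD30 and PLX3X_CD0 libraries deviated with r of 0.136, -0.265 and -0.241 over 13982 genes, so the numbers do not pair them. With the replicate number as a block, 372 genes rose and 382 fell, and 7 of the 70 missed the threshold: Cd74 (adjusted p = 0.067), Egr1 (0.0752), Slc1a2 (0.0641), Per2 (0.0513), Cspg4 (0.0513), Tenm3 (0.0528) and 5330413P13Rik (0.0576). The causes of these changes were not tested. Low counts limit the precision of many uncalled genes that were lower in PLX1X, and 3 libraries per group limit the precision of small changes.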
